A study of Homo sapiens with 27 samples.

Results

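MM134 LTED-A was compared directly with MM134 LTED-E, gene by gene, using 3 libraries of each variant among the 27 libraries of the series. The MM134 line (MDA-MB-134VI) was established from an ER-positive invasive lobular breast carcinoma (ILC), and its long-term estrogen deprived (LTED) variants were derived independently of one another by keeping hormone-deprived cells for months in medium with charcoal-stripped serum, from which steroid hormones are removed. Both variants therefore share the cell line and the deprivation, no further treatment was given to either, and the comparison asks how far separate derivations from the same line came to differ. Each library came from 1 of 3 wells of a culture, so the replicate error is the spread between wells of 1 derivation, and the p-values speak for these cultures and not for further derivations. MM134 parental cells, which grew with hormones and were deprived for 3 days before collection, and the variants LTED-B and LTED-D, with 3 libraries each, serve below to place the levels. All 26061 genes expressed highly enough to be tested, of 60619 listed, entered the comparison.

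Estrogen receptor alpha is a nuclear receptor that, once bound by its hormone, drives transcription of growth-related genes in luminal breast cells. Long-term deprivation of hormone is used as a culture model of resistance to aromatase inhibitors, drugs that block the making of estrogen in postmenopausal patients. Cells that resume growth under deprivation can do so with or without the receptor, and lipid synthesis, growth factor receptors and immune-related genes are among the programs known to vary between such lines.

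Libraries of LTED-A held 54982076 to 101378279 estimated counts and those of LTED-E 40459930 to 52501654, of which 9.15% to 11.5% belonged to the top 3 genes. Luminal markers were high in both variants, with KRT8 at 1216 ± 57.8 CPM (counts scaled to a common library size) in LTED-A and at 1222 ± 24.0 in LTED-E (SD, n = 3 each), and EPCAM, an epithelial adhesion protein, at 325 ± 2.41 and 373 ± 2.82 CPM. Of 11 immune cell markers, 8 were too low to be tested, CD3E, CD2 and FCGR3A had no count in any of the 6 libraries, and the summed CPM of the 3 tested was 18.3 to 18.9 in LTED-A and between 19.7 and 21.4 in LTED-E. By median Euclidean distance over the 1000 most variable genes, LTED-A and LTED-E were the nearest of the 6 pairs of MM134 variants (37.9, against 38.3 for LTED-B and LTED-D and 40.9 for LTED-A and LTED-B), but the ranges overlapped with those of LTED-B and LTED-D (37.6 to 39.2 and 37.6 to 39.5). By the number of genes that differed, they came after LTED-A and LTED-B (1839 genes, 7.06%) and LTED-B and LTED-D (1929 genes, 7.4%) and before LTED-B and LTED-E (2550, 9.78%), LTED-A and LTED-D (2576, 9.88%) and LTED-D and LTED-E (3030, 11.6%), so that "nearest" holds for the distance and not for the count.

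A gene was called differentially expressed (DE) when its fold change exceeded 1.5 and its adjusted p was under 0.001 in edgeR's quasi-likelihood test with Benjamini-Hochberg adjustment over all genes tested. Of 26061 genes, 2044 (7.84%) were DE, of which 1354 (5.2% of the genes tested) were higher and 690 (2.65%) lower in LTED-A. Without the fold minimum, 9757 genes (37.4%) had an adjusted p under 0.05. Among the 11770 genes with a mean of 5 CPM or more, 1002 (8.51%) were DE, 662 (5.62%) higher and 340 (2.89%) lower in LTED-A. The median log2 fold change of all genes was near 0, at −0.005. Fold changes over 4 were found for 274 of the higher and 118 of the lower genes, and fold changes over 8 for 117 and 55. Protein-coding genes made up 1063 of the higher and 561 of the lower genes, and long non-coding RNA genes 165 and 81. In 38 genes higher in LTED-A and in 16 lower ones, the variant with the lower level had at most 3 counts in every library. Against the parental cells, 5299 genes (20.3%) were DE in LTED-A and 4947 (19.0%) in LTED-E; both contrasts share the parental libraries.

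**Figure D1:**
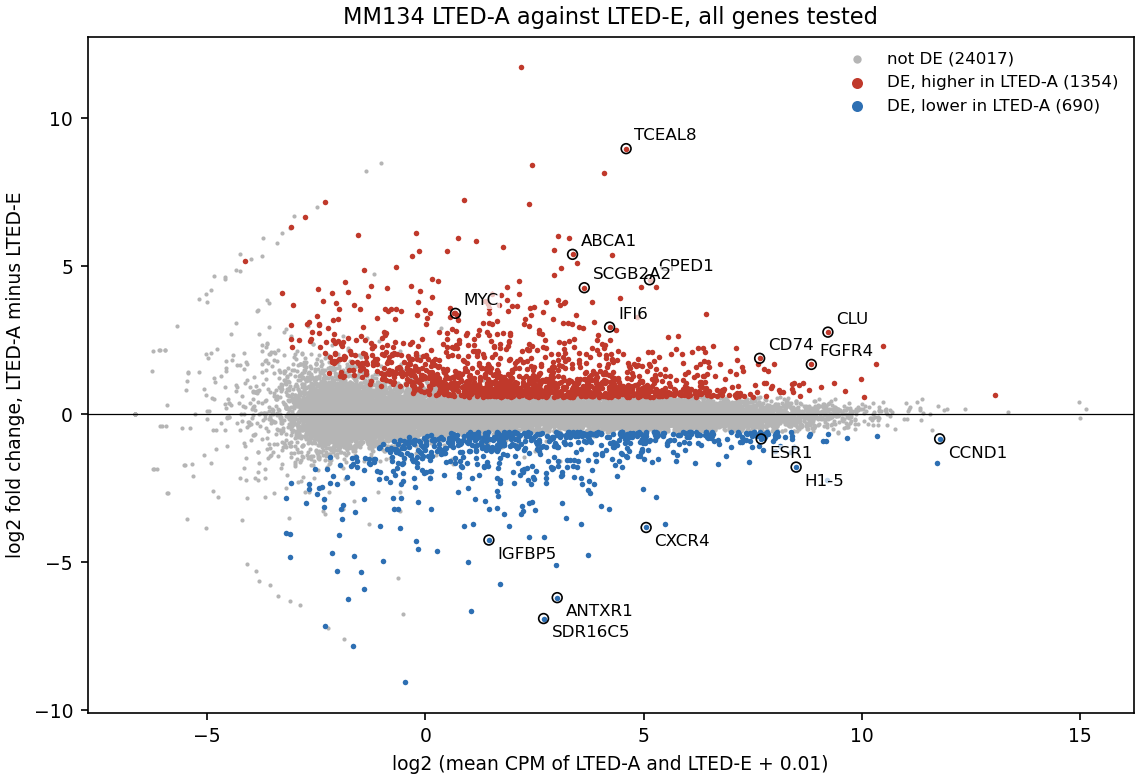
Log2 fold change (LTED-A minus LTED-E, vertical axis) of the 26061 genes tested against the log2 of their mean CPM in both variants (horizontal axis), 1 point per gene. Red points are the 1354 DE genes higher in LTED-A, blue points the 690 lower ones and grey points the remaining 24017, and circled points are named. Of the circled genes, TCEAL8 lies highest, at 8.98, and SDR16C5 lowest, at −6.90.

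Several of the genes most strongly higher in LTED-A were genes near absence in LTED-E. TCEAL8, a member of the transcription elongation factor A-like family (chrX:103252995-103255192, hg38), was at 49.1, 49.3 and 46.7 CPM in the LTED-A libraries and at 0.0247, 0.0636 and 0.174 CPM in those of LTED-E, which held at most 9 counts. The log2 fold change was 8.98 ± 0.13 (SE; adjusted p = 9.11e-19). Parental cells (18.1 CPM), LTED-B (52.9 CPM) and LTED-D (46.5 CPM) all expressed the gene, so LTED-E stood alone.

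CRIP1, a small LIM-domain protein, was at 38.9, 37.7 and 37.3 CPM in LTED-A and at 0.816, 0.742 and 1.16 CPM in LTED-E, a 41.3-fold difference. In parental cells CRIP1 was higher than in either variant, at 122 CPM. The protocadherin PCDHA7 was 50.8-fold higher in LTED-A than in LTED-E (log2 fold change 5.67 ± 0.19), and its level in LTED-A (6.35 to 7.15 CPM) was below the parental mean of 19.1 CPM.

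ABCA1, the transporter that exports cholesterol from the cell to lipid-poor apolipoproteins (chr9:104781006-104928155), was at 19.6, 19.9 and 21.1 CPM in LTED-A and at 0.494, 0.466 and 0.465 CPM in LTED-E. The difference was 42.4-fold (log2 fold change 5.41 ± 0.09 SE; adjusted p = 2.35e-18). Relative to the parental mean of 6.89 CPM, LTED-A was higher (log2 fold change 1.55) and LTED-E lower (−3.85), so the variants lay on opposite sides of the parental level. So they did for ABHD10, a mitochondrial thioesterase, with 14.6 to 17.4 CPM in LTED-A, 0.222 to 0.271 CPM in LTED-E and a parental mean of 1.88 CPM.

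In PCP4L1, GULP1, CPED1 and C1orf127, by contrast, LTED-A was far above the parental level. PCP4L1 was not detected in parental cells and was at 10.4, 11.4 and 10.7 CPM in LTED-A, against at most 3 counts in any LTED-E library, at least 166-fold lower than LTED-A when 3 counts per library are taken as the floor. CPED1 (chr7:120988697-121297442) was at 68.1, 69.7 and 64.5 CPM in LTED-A and at 2.25, 2.80 and 3.48 CPM in LTED-E, with 0.218 CPM in parental cells and 431 CPM in LTED-D. GULP1, an adaptor of the engulfment of apoptotic cells, was 34.5-fold higher in LTED-A than in LTED-E. C1orf127 was at 18.8 to 19.9 CPM in LTED-A and at no more than 1.74 CPM on average in any other MM134 group.

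Other genes of the 15 with the largest log2 fold changes (protein coding, at least 5 CPM in the higher variant) were TCIRG1, a subunit of the vacuolar proton pump (46.4-fold), ZNF662 (30.5-fold), the phospholipid-remodelling enzyme LPCAT2 (25.9-fold), the homeobox factor LHX1 (22.5-fold) and ARMCX2 (19.8-fold). The libraries of LTED-A and LTED-E did not overlap for any of the 15, which the choice of DE genes with the largest differences all but ensures.

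Among the genes lower in LTED-A, SDR16C5, a retinol dehydrogenase (chr8:56300005-56320776), was at 0.0893, 0.147 and 0.0914 CPM in LTED-A and at 13.5, 13.7 and 11.6 CPM in LTED-E. The log2 fold change was −6.90 ± 0.19 (SE; adjusted p = 1.19e-12). It had no count in parental cells or LTED-B. ANTXR1, a cell surface receptor for collagen and for anthrax toxin (chr2:69013176-69249327), was at 15.8 to 16.3 CPM in LTED-E and at 0.128 to 0.331 CPM in LTED-A, with means under 0.4 CPM in the other 3 groups. For these genes LTED-E, and not LTED-A, was away from all other groups.

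SOSTDC1, a secreted antagonist of BMP and WNT signalling, was at 0.159, 0.0920 and 0.0732 CPM in LTED-A and at 6.05, 6.63 and 6.45 CPM in LTED-E, and the homeobox gene MEOX1 was 34.4-fold higher in LTED-E. Both were near 0 in parental cells, at 0.0456 and 0.0760 CPM. In CXCR4, IGFBP5 and PLOD2 the order was different, since LTED-E was the variant nearest to the parental level. CXCR4, the receptor of the chemokine CXCL12 (chr2:136114349-136119177), was at 4.23, 4.43 and 4.55 CPM in LTED-A and at 60.1, 62.1 and 64.3 CPM in LTED-E (log2 fold change −3.83 ± 0.05 SE; adjusted p = 2.21e-19). Parental cells held 76.5 CPM of CXCR4, LTED-B 1.05 CPM and LTED-D 0.362 CPM, so LTED-E alone among the variants was close to the parental level. Its ligand CXCL12 was at 38.7 CPM in each of the 2 variants. IGFBP5, which binds insulin-like growth factors, was at 0.367, 0.0736 and 0.311 CPM in LTED-A, at 5.59, 4.26 and 5.81 CPM in LTED-E and at 18.1 CPM in parental cells. PLOD2, a lysyl hydroxylase of collagen, was at 0.607 to 0.768 CPM in LTED-A, 12.2 to 12.8 CPM in LTED-E and 19.6 CPM in parental cells.

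The other genes with the largest differences in this direction were the phospholipid flippase ATP11B (26.7-fold), the calcium pump ATP2A3 (13.6-fold), MCUB, a subunit of the mitochondrial calcium uniporter (13.2-fold), the membrane skeleton protein ADD3 (13.0-fold), TSPAN12 (11.5-fold), the receptor tyrosine kinase MST1R (10.4-fold), the RNA-binding protein KHDRBS3 (10.3-fold) and the chemokine CCL20 (9.31-fold). ADD3 was below parental cells (44.2 CPM), LTED-B (16.4 CPM) and LTED-D (28.7 CPM) in LTED-A, at 1.63 to 1.74 CPM, and stood at 22 to 22.4 CPM in LTED-E.

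**Figure D2:**
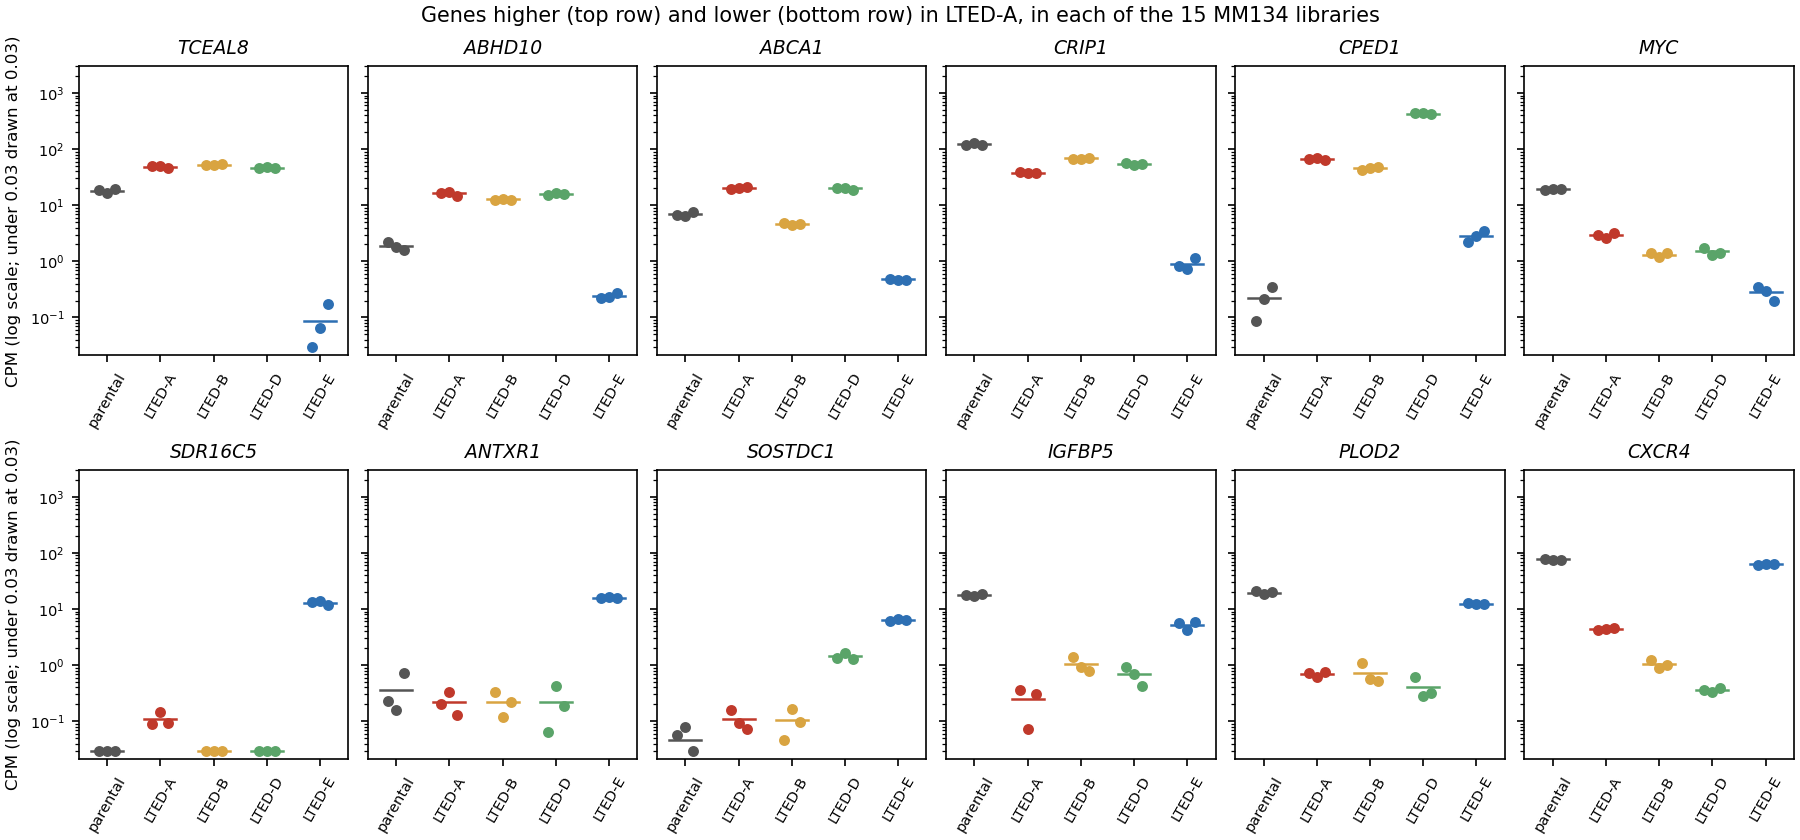
CPM (vertical axis, log scale) of 12 genes in each of the 15 MM134 libraries, with 1 point per library (values under 0.03 drawn at 0.03) and a line at each group's mean; the top row shows genes higher and the bottom row genes lower in LTED-A than in LTED-E. In TCEAL8 and CRIP1 the LTED-E libraries lie far under all the others, in SDR16C5 and ANTXR1 far above them, and in CXCR4 the LTED-E libraries (60.1 to 64.3 CPM) lie beside the parental ones.

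Placed against the other groups, the DE genes did not divide into one variant that had left the parental state and one that had stayed. Of the 1354 genes higher in LTED-A, the parental mean was nearer to LTED-A in 638 and nearer to LTED-E in 716, and of the 690 lower genes it was nearer to LTED-A in 339 and to LTED-E in 351. Over all genes tested, parental cells were nearer to LTED-A in 48.6%, compared with 47.1% of the higher and 49.1% of the lower DE genes. LTED-B was nearer to LTED-A than to LTED-E in 61.5% of the higher and 67.5% of the lower genes (56.6% over all genes tested), and LTED-D in 59.3% and 56.1% (55.7% over all genes). Among the protein-coding genes at least 8-fold from every other group were CRIP1, PCDHA7, RTL8A and TCEAL8 (low in LTED-E), ANTXR1 and SDR16C5 (high in LTED-E) and C1orf127 and S100A9 (high in LTED-A), and no protein-coding gene was low by that margin in LTED-A.

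Genes were then described in 21 lists of pathways and cell functions, which hold 484 genes, 429 of them tested. Of the 429, 115 (26.8%) were DE, beside 7.84% of all genes tested. The lists were chosen with earlier results of these data known, so these shares are no test of enrichment. The counts of single lists below stand beside 5.2% of all genes tested that were higher and 2.65% that were lower in LTED-A. Of all 26061 genes tested, 12844 had a positive and 13200 a negative log2 fold change. In either direction, 37.4% had an adjusted p under 0.05 in the edgeR test. Cholesterol biosynthesis and DNA replication had the lowest medians, and keratins and epithelial surface genes, MHC class II and interferon-stimulated genes the highest.

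**Figure D3:**
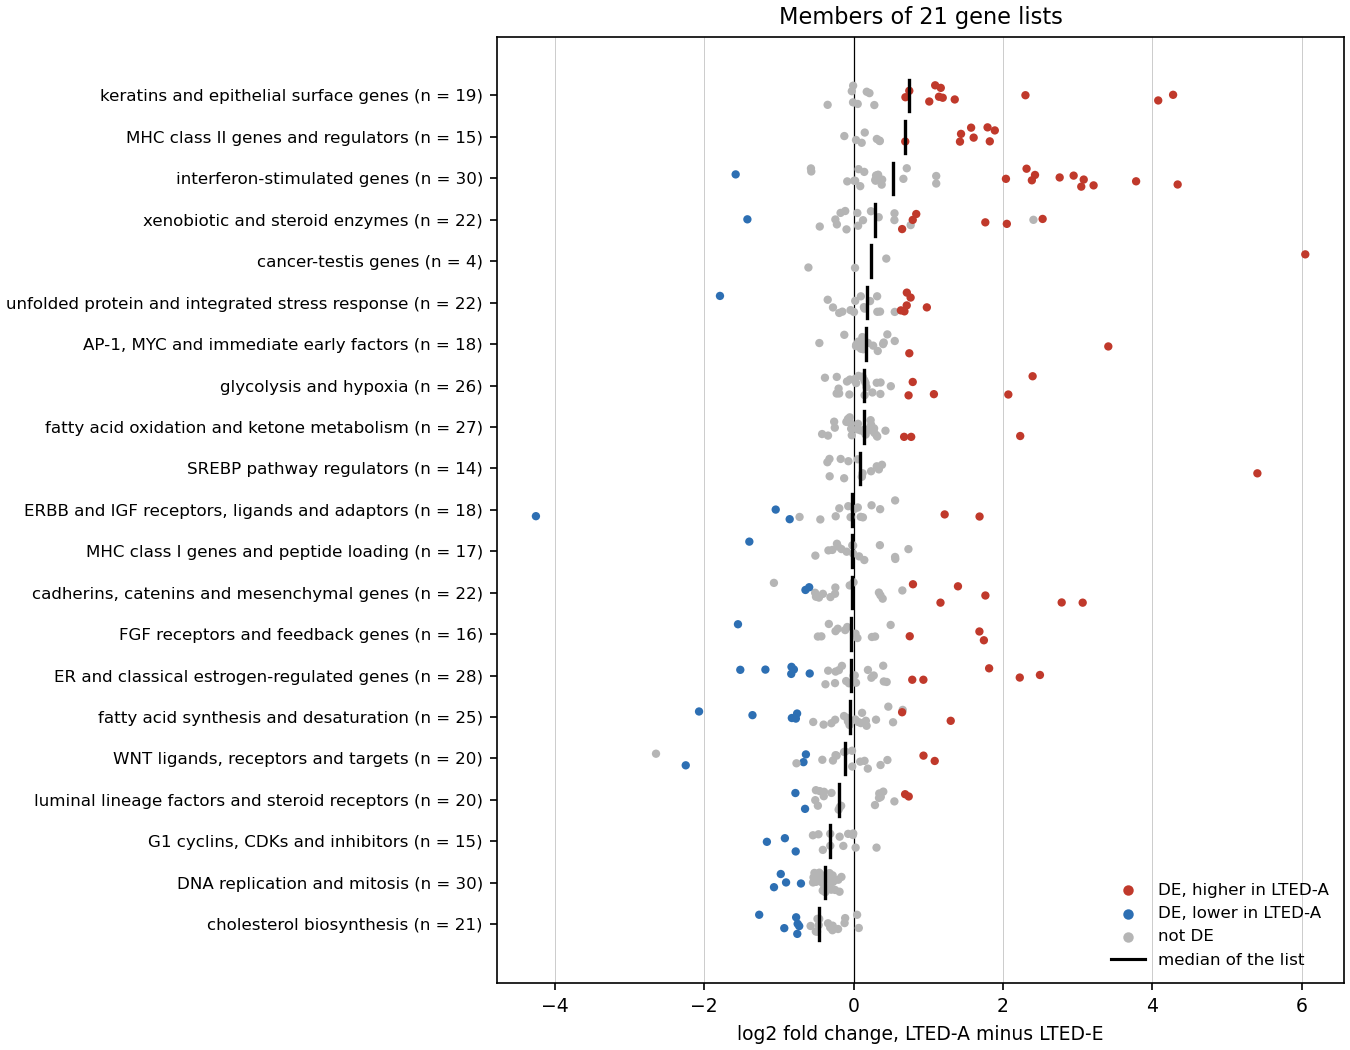
Log2 fold change (LTED-A minus LTED-E, horizontal axis) of each tested member of the 21 gene lists (rows), with 1 point per gene, red for DE and higher in LTED-A, blue for DE and lower, grey for not DE, and a black line at the list's median. Medians run from −0.47 for cholesterol biosynthesis to 0.75 for keratins and epithelial surface genes, beside −0.005 for all genes.

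Interferon-stimulated genes encode antiviral proteins. Interferon binding to its receptor leads to a complex of STAT proteins and IRF9 that binds the interferon-stimulated response element, a short DNA motif near the start of these genes. Of 30 members tested, 11 were DE and higher in LTED-A (5.2% of all genes tested), 1 was lower and 26 of 30 had a positive log2 fold change, with a median of 0.53. IFI44 was at 1.47, 1.56 and 1.5 CPM in LTED-A and at 0.0989, 0.0848 and 0.0387 CPM in LTED-E, a 20.2-fold difference. OASL, an antiviral protein related to the oligoadenylate synthetases, was at 12.4, 12.1 and 13.7 CPM in LTED-A and at 0.667, 1.02 and 1.04 CPM in LTED-E (log2 fold change 3.78 ± 0.17 SE; adjusted p = 2.46e-12). No LTED-A library overlapped with an LTED-E library in either gene, both of which were picked for their large differences.

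IFIT2 and IFIT3 were 9.28-fold and 8.46-fold higher in LTED-A. IFI6 had the highest level in LTED-A among the DE members, with 33.2, 31.8 and 34.0 CPM in LTED-A and 3.90, 4.13 and 4.74 CPM in LTED-E. RSAD2 (viperin, log2 fold change 3.05 ± 0.21), the ubiquitin-like modifier ISG15 (2.76 ± 0.15), IFIT1 (2.43 ± 0.13), the GTPase GBP2 (2.39 ± 0.08) and OAS1 (2.32 ± 0.15) were higher as well. IRF9, the DNA-binding subunit of the complex, was at a mean of 20.5 CPM in LTED-A and of 4.97 CPM in LTED-E (log2 fold change 2.04 ± 0.07). STAT2, its partner, was not DE, at 78.8 CPM in LTED-A and at 71.3 CPM in LTED-E. OAS2 went the other way, at 0.846 to 0.883 CPM in LTED-A and at 2.56 to 2.69 CPM in LTED-E. Relative to parental cells, LTED-A was higher for IFIT3 (log2 fold change 3.03, adjusted p = 9.3e-13) while LTED-E was not DE (−0.06, adjusted p = 0.87), and in IFI6 the values were 2.38 and −0.56.

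MHC class II molecules present peptides from the endosome to CD4 T cells, and their genes are driven together by the coactivator CIITA acting through a promoter module of which the Y box is 1 element. Of 15 members tested, 8 were DE, all of them higher in LTED-A (5.2% of all genes tested), and the median log2 fold change was 0.69. The invariant chain CD74 (chr5:150401637-150412969) was at 303, 315 and 336 CPM in LTED-A and at 84.2, 82.8 and 90.0 CPM in LTED-E (log2 fold change 1.89 ± 0.04 SE; adjusted p = 1.55e-16). HLA-DRA was at 134, 136 and 135 CPM in LTED-A and at 43.7, 43.2 and 45.9 CPM in LTED-E, a 3.05-fold difference. Both were also above parental cells in each variant, since the parental means were 21.6 CPM for CD74 and 6.92 CPM for HLA-DRA. Class II genes are also expressed by immune cells, whose pan-leukocyte marker PTPRC had at most 14 counts in an LTED-A library and 8 in an LTED-E library.

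HLA-DRB5, HLA-DPB1, HLA-DPA1, HLA-DQA1, HLA-DRB1 and HLA-DQB1 differed by log2 fold changes of 1.82, 1.79, 1.57, 1.44, 1.43 and 0.69. HLA-DRB1 and HLA-DRB5 are near-identical in parts, and HLA alleles differ from the reference, so the split of reads among these genes is uncertain. CIITA itself was not DE, with 17.9, 18.6 and 18.3 CPM in LTED-A and 14.0, 14.6 and 14.3 CPM in LTED-E (log2 fold change 0.35 ± 0.05 SE; adjusted p = 1.51e-05), under the 1.5-fold minimum. The peptide-exchange genes HLA-DMA (0.15) and HLA-DMB (0.11) and the RFX subunits RFX5 (−0.12) and RFXANK (0.03) also stayed under it. Of 17 MHC class I genes tested, 1 was DE, the trimming peptidase ERAP2, which was lower in LTED-A (1.27 to 1.48 CPM against 3.56 to 3.71), and the list's median was −0.02.

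The start regions of 4 interferon-stimulated and 2 class II genes that were higher in LTED-A are printed to show the motifs (RefSeq, GRCh38.p14, gene strand, 180 to 81 bases before the start). Capitals mark matches on either strand to the interferon-stimulated response element, searched as GAAA, any 2 bases and GAAA again, or to the Y box, searched as CTGATTGG; matches may overlap.
ISG15 (chr1:1013317-1013416, plus strand): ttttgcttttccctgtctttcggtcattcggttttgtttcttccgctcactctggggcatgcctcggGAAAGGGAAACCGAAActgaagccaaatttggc
IFIT1 (chr10:89392443-89392542, plus strand): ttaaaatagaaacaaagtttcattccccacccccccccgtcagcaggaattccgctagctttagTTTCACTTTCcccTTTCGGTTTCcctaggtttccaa
IFIT3 (chr10:89327817-89327916, plus strand): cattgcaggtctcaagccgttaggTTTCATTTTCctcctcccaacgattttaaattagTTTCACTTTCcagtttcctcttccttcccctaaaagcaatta
IFI6 (chr1:27672273-27672372, minus strand): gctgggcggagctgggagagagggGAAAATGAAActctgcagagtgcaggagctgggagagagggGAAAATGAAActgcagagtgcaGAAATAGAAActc
HLA-DRB5 (chr6:32530368-32530467, minus strand): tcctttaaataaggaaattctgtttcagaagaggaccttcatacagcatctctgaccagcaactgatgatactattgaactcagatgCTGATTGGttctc
HLA-DQB1 (chr6:32666738-32666837, minus strand): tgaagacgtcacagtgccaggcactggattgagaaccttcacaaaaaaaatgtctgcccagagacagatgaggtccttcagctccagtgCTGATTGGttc
ISG15, IFIT1 and IFIT3 each hold 2 matches in these bases and IFI6 holds 3. In windows from 250 bases before to 50 after the start, the interferon motif was found in 16 of the 23 listed interferon-stimulated genes with a window and in 3.57% of all 35116 windows. It was also found in genes that were not DE, such as MX1 and IFI27 (log2 fold changes 0.29 and 0.02). The Y box motif was found in 5 of 14 listed class II genes and in 3.97% of all windows. For both motifs a listed gene counted when any of its windows matched, while the percentages are shares of single windows. A gene can have several windows, so these shares are unlike measures. A match describes letters and is not a measured binding site.

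**Figure D4:**
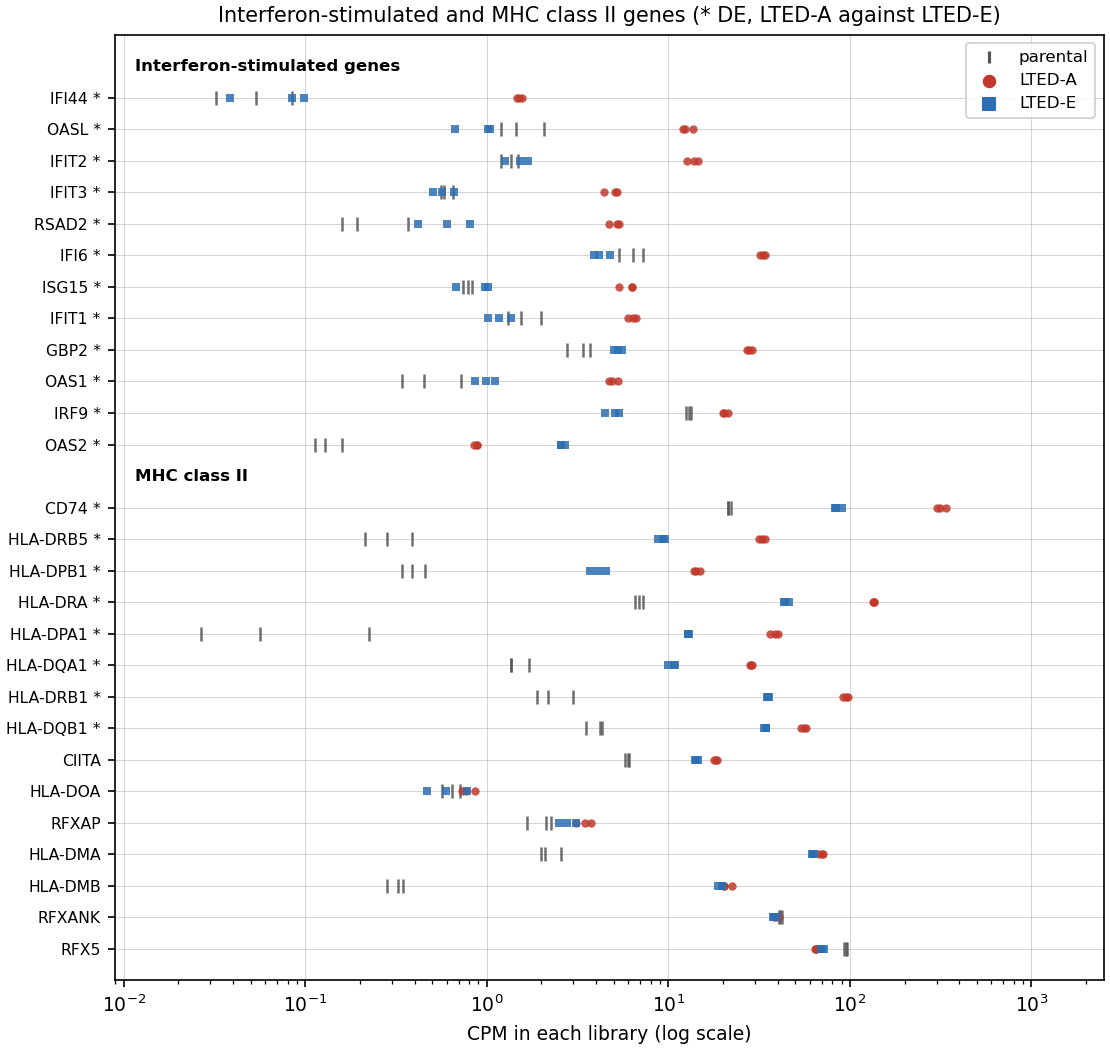
CPM in each library (horizontal axis, log scale) of the 12 DE interferon-stimulated genes and of the 15 tested MHC class II genes (rows), with red circles for LTED-A, blue squares for LTED-E and grey bars for parental cells; asterisks mark DE genes. The LTED-A libraries lie to the right of LTED-E in 11 of the 12 interferon-stimulated genes, where LTED-E is often at the parental level, and in the 8 DE class II genes both variants lie to the right of the parental cells.

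Genes of DNA replication and mitosis were lower in LTED-A without exception in direction. All 30 tested members had a negative log2 fold change, each with an adjusted p under 0.05, and the median was −0.39. Among all 26061 genes tested, 13200 had a negative log2 fold change, and 37.4% had an adjusted p under 0.05 in either direction. Only 4 passed the 1.5-fold minimum and were DE (2.65% of all genes tested were DE in this direction), so most of these differences were under 1.5-fold. MKI67, the gene of the proliferation marker Ki-67, was at 178, 182 and 180 CPM in LTED-A and at 372, 367 and 390 CPM in LTED-E (log2 fold change −1.06 ± 0.05 SE; adjusted p = 1.16e-11). The parental mean of MKI67 (263 CPM) lay between the variants. That order did not hold for the sum over the 30 members, which was highest in the parental libraries (5318 to 5547 CPM). LTED-E followed at 5050 to 5161 CPM. Below it came LTED-D (4418 to 4494 CPM), LTED-B (4153 to 4296 CPM) and LTED-A (3750 to 3785 CPM). RRM2, a subunit of ribonucleotide reductase, was at 118 to 123 CPM in LTED-A and at 218 to 234 CPM in LTED-E. MYBL2, a transcription factor of the cell cycle, and the cyclin CCNE2 were 1.96-fold and 1.63-fold lower in LTED-A.

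Cyclin D1 (CCND1), which pairs with CDK4 and CDK6 to open the cell cycle and is a target of the estrogen receptor, was at 2455, 2511 and 2626 CPM in LTED-A and at 4518, 4415 and 4562 CPM in LTED-E, with 5223 CPM in parental cells. The list of G1 regulators leaves out CCND1 and CCNE2, which were both DE and lower in LTED-A. Of its 15 members, 3 were DE, and all 3 are inhibitors of cyclin-dependent kinases that were lower in LTED-A. They were CDKN1A (2.23-fold), CDKN2A (1.89-fold) and CDKN1C (1.71-fold). CDK4 (−0.01) and RB1 (−0.07) were near 0 on the log2 scale.

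Cholesterol biosynthesis was the list with the lowest median log2 fold change, −0.47. Of 21 members, 6 were DE and all were lower in LTED-A (2.65% of all genes tested), 19 had a negative log2 fold change and 18 of these had an adjusted p under 0.05. HMGCS1, which makes the HMG-CoA that enters the mevalonate pathway (chr5:43287470-43313512), was at 196, 199 and 191 CPM in LTED-A and at 480, 455 and 472 CPM in LTED-E (log2 fold change −1.26 ± 0.04 SE; adjusted p = 4.18e-14). MSMO1, IDI1 and FDFT1, which act in the sterol branch and the steps before it, were 1.90-fold, 1.70-fold and 1.69-fold lower, and ACAT2 and EBP were also DE. Both variants were above the parental level in HMGCS1 (91.8 CPM), LTED-A by a log2 fold change of 1.09 and LTED-E by 2.35. Summed over the 21 members, the level was 2603 to 2689 CPM in LTED-A and 3941 to 3949 CPM in LTED-E. The sum was 2174 to 2317 CPM in LTED-B, 2623 to 2682 CPM in LTED-D and 1866 to 1918 CPM in parental cells. In this sum LTED-E thus stood above all other groups, and LTED-A was at the level of LTED-D.

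**Figure D5:**
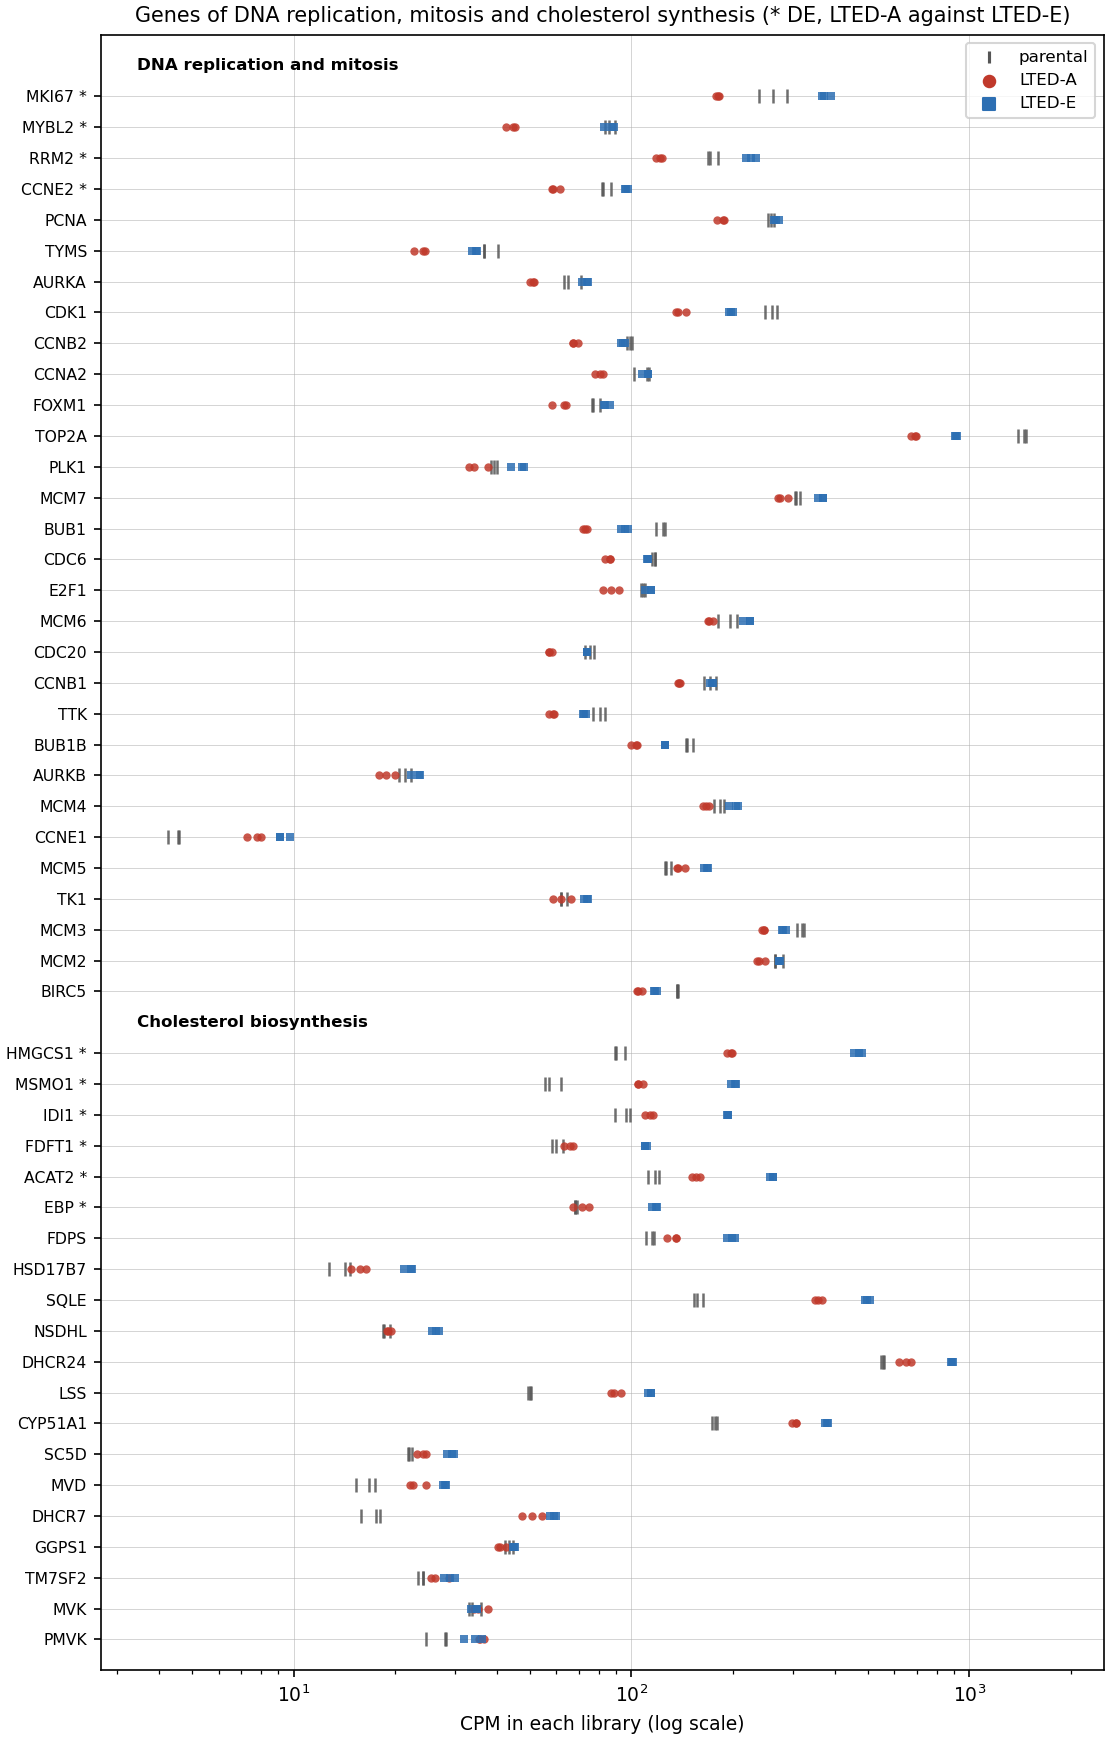
CPM in each library (horizontal axis, log scale) of the 30 tested genes of DNA replication and mitosis and 20 of the 21 of cholesterol biosynthesis (rows, ordered by log2 fold change), with red circles for LTED-A, blue squares for LTED-E and grey bars for parental cells; asterisks mark DE genes. LTED-A lies to the left of LTED-E in the means of all 30 replication and mitosis genes and of 18 of the 20 cholesterol genes shown.

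SREBF1, the transcription factor of fatty acid synthesis genes, was at 277, 285 and 304 CPM in LTED-A and at 234, 220 and 230 CPM in LTED-E, a log2 fold change of 0.34 ± 0.04. SREBF2, its counterpart for cholesterol genes, was at 107, 113 and 114 CPM against 143, 135 and 139 CPM (−0.32 ± 0.04). Neither passed 1.5-fold. Of the 14 tested members of the list of SREBP pathway regulators, only ABCA1 was DE, which is a cholesterol transporter and not itself a regulator.

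FASN, the fatty acid synthase, was at 2989, 3086 and 3381 CPM in LTED-A and at 2266, 2098 and 2187 CPM in LTED-E (log2 fold change 0.53 ± 0.05), and the desaturase SCD was at 2463, 2606 and 2606 CPM against 3716, 3726 and 3707 CPM (−0.54 ± 0.03). The libraries did not overlap in either gene, both were under the fold minimum, and parental cells held 363 CPM of FASN and 468 CPM of SCD. Of 25 members, 2 were DE and higher in LTED-A and 5 lower. DGAT2, which makes triglycerides for lipid droplets, was at 114, 117 and 118 CPM in LTED-A and at 48.0, 46.7 and 46.9 CPM in LTED-E. The elongase ELOVL2 (4.19-fold), the malic enzyme ME1 (2.55-fold), the acyl-CoA synthetase ACSL4 (1.77-fold) and the desaturases FADS1 and FADS2 (log2 fold changes −0.77 and −0.75) were lower in LTED-A. ACACA (−0.30) and ACLY (−0.13), the enzymes that supply malonyl-CoA and cytosolic acetyl-CoA, were not DE.

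In fatty acid oxidation and ketone metabolism 3 of 27 genes were DE, all higher in LTED-A. HADHB and ETFDH, which act in beta-oxidation and electron transfer from it, were 1.71-fold and 1.6-fold higher. CPT1A, which carries fatty acids toward the mitochondrial matrix, was not DE (378 and 344 CPM).

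The estrogen receptor gene ESR1 was at 146, 152 and 148 CPM in LTED-A and at 262, 266 and 266 CPM in LTED-E, 1.78-fold lower in LTED-A (log2 fold change −0.83 ± 0.03 SE; adjusted p = 7.58e-14). Both variants were below parental cells (360 CPM), while LTED-B (533 CPM) and LTED-D (467 CPM) were above. Among 28 receptor and estrogen-regulated genes, 5 were DE and higher and 6 lower in LTED-A, and the median log2 fold change was −0.03. Genes of both directions belong to the same list of the receptor and classical estrogen-regulated genes. The lower genes were ESR1, CCND1, GREB1, TFF1, MYB and EGR3. MYB (log2 fold change −0.59) lies at the fold minimum, and its call was lost without any 1 of 3 libraries and with RLE, DESeq2 or either other filter on low counts. The call for EGR3 was lost without 1 library, replicate 2 of LTED-E, with the 6 libraries only and after thinning. GREB1 was at 16.3, 16.3 and 17.9 CPM in LTED-A and at 48.8, 48.4 and 46.8 CPM in LTED-E (log2 fold change −1.51 ± 0.04), and TFF1 at 564, 579 and 619 against 983, 1043 and 1036 CPM. The higher ones were the secreted glycoprotein STC2 (11.3 and 1.99 CPM), SERPINA3 (28.1 and 5.88 CPM), AGR3 (58.4 and 16.6 CPM), the lysosomal protease CTSD (705 and 369 CPM) and AGR2 (998 and 578 CPM). The progesterone receptor PGR was low in both, at 0.146 to 0.184 CPM in LTED-A and at 0.116 to 0.148 CPM in LTED-E, against 2.65 CPM in parental cells.

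Of 20 luminal transcription factors and steroid receptors, 2 were DE in each direction, with a median of −0.19. The transcription factor RUNX1 was 1.57-fold lower in LTED-A. The mineralocorticoid receptor NR3C2 (1.67-fold) and the orphan receptor ESRRG (1.61-fold) were higher, and the call for ESRRG was lost without any 1 of 5 of the 6 libraries. FOXA1 (389 and 541 CPM) and GATA3 (104 and 80.9 CPM), which open and mark luminal chromatin, were not DE.

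FGFR4, a receptor tyrosine kinase for fibroblast growth factors, was at 675, 692 and 733 CPM in LTED-A and at 214, 221 and 218 CPM in LTED-E (log2 fold change 1.69 ± 0.03 SE; adjusted p = 5.66e-17), with 159 CPM in parental cells, 327 CPM in LTED-B and 348 CPM in LTED-D. FGFR1 was at 1244 to 1350 CPM in LTED-A and at 1356 to 1381 CPM in LTED-E and was not DE. The feedback inhibitor SPRY1 (93.0, 90.4 and 93.8 CPM against 27.2, 27.1 and 28.4) and the ERK phosphatase DUSP5 (1.69-fold) were higher in LTED-A, while SPRY2 and SPRY4 were not DE (log2 fold changes −0.33 and −0.21), nor was the FGF target ETV4 (−0.48). FGFR3 was lower, at 4.54 to 5.28 against 13.4 to 15.8 CPM. In all, 3 of 16 FGF genes were DE and higher and 1 lower, with a median log2 fold change of −0.03.

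In the insulin-like growth factor system, the receptor IGF1R was 2.06-fold lower in LTED-A (50.5, 53.5 and 52.6 CPM against 108, 101 and 112 CPM), the adaptor IRS1 2.33-fold higher, and of the binding proteins IGFBP3 was 3.22-fold higher and IGFBP5 and IGFBP2 were lower. ERBB3 (0.06), ERBB2 (0.36) and ERBB4 (−0.44) were not DE. In that list 2 of 18 members were DE and higher, 3 lower, with a median log2 fold change of −0.01. Of 20 WNT genes 2 were DE and higher and 3 lower, with a median of −0.12. WNT7B (2.12-fold) and the WNT inhibitor NKD1 (1.91-fold) were higher, WNT5A (0.166 to 0.293 CPM against 1.14 to 1.17), WNT9A and WNT11 were lower, and WNT4 was not DE (−0.34). The call for WNT9A was lost without any 1 of 3 libraries, and that for WNT11 without replicate 2 of either variant.

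Keratins and epithelial surface genes were the list with the largest share of DE members, 11 of 19, all higher in LTED-A, with a median log2 fold change of 0.75. Secreted proteins of the breast led it. Mammaglobin A (SCGB2A2) was at 22.9, 25.6 and 22.6 CPM in LTED-A and at 1.28, 0.932 and 1.43 CPM in LTED-E (log2 fold change 4.28 ± 0.10 SE; adjusted p = 6.31e-16), and the prolactin-induced protein PIP was at 5.28 to 5.58 against 0.191 to 0.544 CPM. AZGP1, a zinc-binding glycoprotein, was at 1327, 1408 and 1452 CPM in LTED-A and at 606, 595 and 630 CPM in LTED-E, with 1.64 CPM in parental cells. CEACAM6 (4.93-fold), CEACAM5 (2.56-fold), the claudins CLDN3 and CLDN4 and the keratins KRT15, KRT23, KRT81 and KRT86 were higher as well. KRT81 and KRT86 are close copies, so their counts may share reads. The keratins of luminal cells were not DE, with log2 fold changes of −0.01 for KRT8, 0.21 for KRT18 and 0.28 for KRT19.

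Of 22 cadherins, catenins and mesenchymal genes, 6 were DE and higher and 2 lower in LTED-A, with a median of −0.03. N-cadherin (CDH2) was at 8.77, 8.34 and 8.32 CPM in LTED-A and at 1.04, 1.02 and 0.987 CPM in LTED-E, both below the parental mean of 52.4 CPM. The integrin subunit ITGB6 (6.90-fold), TGFBR2 (3.40-fold), TGFB1 (2.63-fold), fibronectin (FN1, 2.24-fold) and vimentin (VIM, 1.74-fold) were higher, and TGFBR1 and ITGB1 lower (log2 fold changes −0.64 and −0.59). E-cadherin (CDH1), whose loss defines lobular carcinoma, was at 10.9 to 11.3 CPM in LTED-A and at 8.32 to 9.12 CPM in LTED-E and was not DE. The markers of fibroblasts and endothelium summed to 15.7 to 17.4 CPM in LTED-A and to 11.7 to 11.9 CPM in LTED-E, with 2 of 7 DE (COL1A1 and PECAM1, both higher) and LUM at no more than 3 counts in any library, and their part in the result was not tested.

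Steroid and xenobiotic enzymes held 6 DE genes higher and 1 lower in LTED-A of 22, with a median of 0.29. Steroid sulfatase (STS), which frees estrogens and androgens from their sulfates, was at 93.4, 95.8 and 93.5 CPM in LTED-A and at 23.4, 23.8 and 21.1 CPM in LTED-E (log2 fold change 2.05 ± 0.04 SE; adjusted p = 5.66e-17), against 11.9 CPM in parental cells. The reductase AKR1B10 (5.78-fold) and the glucuronosyltransferase UGT2B15 (3.40-fold), which inactivates androgens, were higher, as were HSD17B2, AKR1C2 and CYP4Z1, the last of which lost its call without replicate 1 of LTED-A and after thinning. AKR1C3, whose sequence is close to that of AKR1C1 and AKR1C2, was lower (0.476 to 0.662 against 1.28 to 1.80 CPM), and that call was lost without any 1 of the 6 libraries. UGT2B15 also has close copies.

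MYC was low in both variants relative to parental cells (19.3 CPM) but not equally. It was at 2.98, 2.59 and 3.22 CPM in LTED-A and at 0.346, 0.297 and 0.194 CPM in LTED-E, a log2 fold change of 3.41 ± 0.16 (SE; adjusted p = 8.05e-12). MYCN, its paralog, was at 125 and 114 CPM and was not DE. IER3 (1.68-fold) was the only other DE gene among 18 AP-1, MYC and immediate early genes, of which 16 had a positive log2 fold change and the median was 0.16.

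Among stress genes, 6 of 22 were DE and higher and 1 lower (median 0.18). TRIB3, a pseudokinase induced by the integrated stress response, was at 246 to 256 CPM in LTED-A and at 125 to 128 CPM in LTED-E, and VLDLR, HERPUD1, ERN1, DDIT4 and FKBP11 were 1.55-fold to 1.70-fold higher, with the call for FKBP11 lost without replicate 2 of LTED-E and after thinning. The cystine transporter SLC7A11 was 3.45-fold lower (10.6, 10.3 and 9.66 against 35.8, 35.7 and 34.1 CPM). In glycolysis and hypoxia 5 of 26 were DE, all higher in LTED-A (median 0.15). They were NDRG1 (5.27-fold), carbonic anhydrase CA9 (4.20-fold), hexokinase HK2 (2.11-fold), ENO2 (1.73-fold) and SLC16A3, whereas the glucose transporter SLC2A1 (−0.38), ENO1 (−0.22) and VEGFA (0.07) were not DE. Of 25 cancer-testis genes 21 were too low to be tested, and MAGEA1 was the only DE one, with 0.586 to 0.713 CPM in LTED-A and at most 1 count in any LTED-E library.

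Of the markers of other cells, LYZ (9.07 to 10.2 CPM in LTED-A and at 1.84 to 2.32 CPM in LTED-E) and MYLK (14.7 to 15.4 and 8.31 to 9.66 CPM) were higher and ITGAM (6.92 to 7.81 and 16.1 to 16.8 CPM) lower in LTED-A. Both LYZ and ITGAM are markers of myeloid cells and differed in opposite directions, while TYROBP, FCGR3A and CD14 of the same cells had at most 6 counts in any of the 6 libraries.

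Positions along the chromosomes were also compared. Among 545 windows, each of 40 neighbouring genes over 5 CPM, no median log2 fold change was beyond 0.5 in either direction and only 2 were beyond 0.25. Both lay on chromosome 6, the lower of them, at −0.44, between positions 26103933 and 27838375, where 30 of the 40 genes were histone genes.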

How the data were processed

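RNA-Seq of 15 MM134 libraries was analysed, 3 per group. Per the labels and the study's methods, the authors made libraries with a stranded total RNA kit and used Salmon 0.6.0 (hg38, Ensembl release 82) to estimate counts for each gene. The deposited file holds these estimated counts, not whole and not normalized; the strand setting is not given in the sources used here. Counts were rounded, filtered with filterByExpr, scaled by TMM and tested with edgeR 4.0.16 in R 4.3.3 (two-sided quasi-likelihood F-test, Benjamini-Hochberg adjustment) in 1 fit of all 15 libraries, and the contrast was LTED-A minus LTED-E. CPM values use the TMM library sizes. DE genes changed over 1.5-fold with adjusted p under 0.001, the study's thresholds. Standard errors are the log2 fold change over the root of F. A group with at most 3 counts in every library was taken as below detection. Distances were computed on log2(CPM + 1), and nearness of groups on log2(CPM + 0.5). Symbols and positions came from GENCODE v44 by Ensembl ID, and promoter windows from RefSeq (GRCh38.p14).

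Named genes were the 15 coding genes with the largest log2 fold change in each direction (DE, at least 5 CPM in the higher variant, not on Y), up to 4 DE members per list with the largest difference, and a set of receptor, lipid, immune and growth genes. Further list members, or partners of a named gene, are named where a count is spelled out or a value stands beside it, chosen after their values were seen. The members, lists and motifs were chosen with earlier results of these data known. Wells of 1 group differed more than counting noise (chi-square per degree of freedom 3.08 to 10.5 in both variants), so none was counted as a duplicate. On simulated counts of this comparison, 97 of 100 genes changed 2-fold and 99 of 100 changed 3-fold were recovered, with 0 false calls among 25216 genes. The changed genes were drawn only from those with a mean of at least 1 CPM. Every gene was given the spread of the trend for its level and none of its own. These shares therefore do not carry over to lower or more variable genes of the data. Alternatives were other filters, RLE, DESeq2 1.42.0, the 6 libraries only, other thresholds, glmTreat, thinning, a replicate block and leaving out each library. Depth was 40459930 to 101378279 counts, and 3 counts equal 0.0466 CPM as a mean over the LTED-A libraries and 0.0653 CPM as a mean over those of LTED-E. A few genes are not reported here or labelled in the figures.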

Additional observations from a re-analysis of the deposited data

How the results depend on the processing

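With no filter on low counts, with at least 10 counts in every library of both variants, and with RLE size factors, DESeq2, the 6 libraries only, thinning to the smallest library or leaving out 1 library, the number of DE genes stayed within 1.5 times 2044, and the split of higher and lower genes moved little. A fold change minimum of 2 left 1125 (770 higher and 355 lower in LTED-A), glmTreat against 1.5-fold 1030 (695 and 335), and no fold change minimum gave 5538 (3166 and 2372), since each of these changes the fold required. An adjusted p under 0.05 gave 1139 lower genes. The DE genes in the lists were 66 with a minimum of 2 and 257 with none, beside 115. The share of DE genes whose parental mean was nearer to LTED-A, 47.8%, became 45.1% without a fold minimum. Leaving out 1 library gave 1827 to 1900 DE genes (1198 to 1262 higher, 620 to 645 lower), 111 to 115 of them in the lists, a share nearer to LTED-A of 47.6% to 48.6%, and 0 stretches.

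Of the 121 genes picked by the naming rule, 106 were DE, no alternative reversed any of them, and 118 kept their call without each library in turn; the exceptions were ESRRG, WNT9A and AKR1C3. Of all 115 DE genes in the lists, 107 kept it, and the others were these 3 with MYB, EGR3, WNT11, CYP4Z1 and FKBP11. Thinning also ended the calls for ACSL4, KRT81 and TGFBR2, and no filter on low counts that for ITGB1. In their deviations from the group means, same-numbered wells of both variants correlated at 0.22, 0.28 and −0.02 (numbers 1, 2 and 3). Differently numbered wells correlated at −0.27 to 0.09. Same-numbered wells thus went together for numbers 1 and 2 but not for 3, and the main fit did not use the numbers. With the replicate block the DE count was 1956 (1298 higher and 658 lower). Library 1 of LTED-A was the deepest (101378279 counts). Levels of a few counts per library, as in the near-absent genes of LTED-E, carry a large relative error.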

Other observations

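Genes named here were chosen after their values were seen. The most abundant protein-coding DE gene higher in LTED-A was PEG10, an imprinted gene derived from a retrotransposon, at 2382, 2378 and 2391 CPM in LTED-A and 495, 473 and 493 CPM in LTED-E (log2 fold change 2.29 ± 0.04 SE; edgeR, adjusted p = 1.87e-17). LTED-E was at the parental level of 495 CPM and LTED-D at 1612 CPM. CLU, a secreted chaperone, was at 984, 1038 and 1101 CPM in LTED-A and at 153, 153 and 151 CPM in LTED-E, where it was below parental cells (249 CPM). AMBP, the precursor of alpha-1-microglobulin and bikunin, was 3.21-fold higher in LTED-A (1937 CPM, against 603 CPM in LTED-E and 9.39 CPM in parental cells). S100A9, a calcium-binding protein best known from neutrophils, was at 155 to 159 CPM in LTED-A, 13.8 to 15.9 CPM in LTED-E and under 5 CPM on average in the other groups. In the other direction, SLC12A2, the sodium-potassium-chloride cotransporter, was at 1655, 1622 and 1591 CPM in LTED-A and 5061, 5075 and 5134 CPM in LTED-E (log2 fold change −1.65 ± 0.03), with 262 CPM in parental cells. Its divergent transcript SLC12A2-DT, which starts beside it, differed by −1.62. The strand setting of the counting was not given in the sources used here, so reads of such overlapping or neighbouring transcripts may not be fully separated. SYCP2, a protein of the meiotic synaptonemal complex, was at 964 to 973 CPM in LTED-E and 199 to 216 CPM in LTED-A, and at no more than 291 CPM on average in the other groups.

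Histone genes were listed after the windows along the chromosomes were seen. Of 61 tested, 51 had a negative log2 fold change, beside 13200 of all 26061 genes tested, and the median was −0.47. The 61 include pseudogenes, such as H2BC20P and H2AC10P. H3C14 and H3C15 had the same rounded CPM in the parental, LTED-A and LTED-E libraries, so the 61 are not all separate signals. Of the 61, 10 were DE and lower (2.65% of all genes tested) and 0 were DE and higher (5.2%). Of the 10, H2AC12, H2AC13, H4C3 and H4C4 lost the call without 1 library or more and with no filter on low counts. The linker histone H1-5 was at 158, 162 and 167 CPM in LTED-A and at 570, 551 and 553 CPM in LTED-E (log2 fold change −1.78 ± 0.03; edgeR, adjusted p = 1.36e-17), and the parental mean of 514 CPM was close to LTED-E. H2AC16 was next, at 102 and 195 CPM. Histone genes within a class are near-identical, so the split of counts among them is uncertain.

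The near-absence of TCEAL8 in LTED-E did not extend to the neighbouring genes of its family. TCEAL1, TCEAL3 and TCEAL4 had log2 fold changes of 0.09, 0.04 and 0.03 and were not DE, and BEX2 and BEX3, in the same part of the X chromosome, had 0.04 and −0.16. BEX4 was lower in LTED-A (12.7 to 13.1 CPM against 30.6 to 32.9 CPM). ARMCX2 was high in LTED-A alone (73.0 to 76.3 CPM, against 15.2 CPM in parental cells and 3.77 CPM in LTED-E), whereas ARMCX1, ARMCX3, ARMCX4, ARMCX5 and ARMCX6 had log2 fold changes between −0.30 and 0.27. RTL8A was at 4.06 to 4.66 CPM in LTED-A and at 0.0424 to 0.0968 CPM in LTED-E, while its near copy RTL8C differed by 0.43.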
